A study of Rattus norvegicus with 16 samples.

Results

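Complement C1q is built from 3 chains, and the 3 genes that encode them, C1qa (ENSRNOG00000012807), C1qb (ENSRNOG00000012749) and C1qc (ENSRNOG00000012804), were followed across 16 RNA libraries from the rat spinal dorsal horn. They are 3 of 30560 gene IDs in the count table, and all 3 were among the 15237 IDs with enough counts to test. The set was chosen by gene family and by measured values, as it includes the 2 IDs with the strongest rise after nerve injury. By p these were C1qb and C1qc, though not by size of the fold change. Every value of injury against sham below is therefore a description of the chosen genes and carries no test. The table pairs no ID with a symbol. The 3 symbols come from the definition of the set, and no other ID is named here.

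The libraries were poly(A) RNA from the lumbar dorsal horn, where sensory fibres of the hind limb end, taken 28 days after surgery from wild-type (WT) rats and rats with a knockout (KO) of the lysophosphatidic acid receptor LPA4. Surgery was either sham or spared nerve injury (SNI), a model of lasting neuropathic pain in which branches of the sciatic nerve are cut and the sural branch is left intact. Each genotype had 4 sham and 4 SNI libraries, which gives 4 groups. Titles of the KO sham libraries put "WT" where the operation belongs, while the matching column headers read KO sham. The labels state neither strain, sex, age nor the kind of knockout allele. They also do not tie each library to its own rat, so a p-value here sets a difference against the scatter of libraries, which may be technical.

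C1q is the recognition molecule of the classical complement pathway. Its A, B and C chains, the products of C1qa, C1qb and C1qc, join through collagen-like stems and end in globular heads that bind antibody complexes, dying cells and other ligands. Bound C1q activates the proteases C1r and C1s, which cleave C4 and C2 and so start the cascade that leads to C3. In the brain and spinal cord microglia are the main source of C1q, and C1q is known there for marking synapses for removal.

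In the RefSeq gene table of the assembly GRCr8, matched by symbol, the genes lie side by side on chromosome 5 in the order C1qb, C1qc, C1qa, with no other listed gene starting between them. Ephb2 and Epha8, which encode Eph receptors, are the nearest protein-coding neighbours on either side. RefSeq's promoter table held 2 of the 3 genes, C1qa and C1qb. The 250 bases before each start are shown as a description. Whether they bear on how the transcripts varied across libraries was not tested. They are from GRCr8, minus strand, chr5:154419934-154420183 for C1qa and chr5:154407828-154408077 for C1qb, 5′ to 3′, and capitals mark matches, on either strand, to GGAAGT, a core bound by ETS factors such as PU.1.
C1qa: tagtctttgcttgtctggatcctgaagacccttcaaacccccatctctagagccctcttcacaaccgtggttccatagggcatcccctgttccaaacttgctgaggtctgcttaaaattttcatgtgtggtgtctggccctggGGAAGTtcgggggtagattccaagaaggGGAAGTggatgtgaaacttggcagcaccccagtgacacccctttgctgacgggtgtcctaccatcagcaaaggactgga
C1qb: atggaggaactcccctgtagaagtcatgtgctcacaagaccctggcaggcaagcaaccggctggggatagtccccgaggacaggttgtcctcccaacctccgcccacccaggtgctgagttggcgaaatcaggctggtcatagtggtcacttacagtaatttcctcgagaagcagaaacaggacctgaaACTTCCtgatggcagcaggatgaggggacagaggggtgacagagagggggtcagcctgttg

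The C1qa window held 2 matches to GGAAGT, and the C1qb window held 1, on the other strand. Also searched were the AP-1 site TGANTCA and the TATA box TATAAA, with 0 matches to either in both windows. Of 33469 rat promoter windows of the same length, 19.2% held at least 1 GGAAGT match and 2.8% held 2 or more. TGANTCA was found in 6.34% and TATAAA in 12.9%. The marked matches do not overlap each other. PU.1 is a factor of the myeloid lineage to which microglia belong, and the motifs were picked with the sequences known. A match describes letters in the window, and no binding was measured here.

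Library totals ran from 15790243 to 28090152 expected counts, and none of the KO SNI libraries had fewer than 23890801. Levels are therefore given as CPM, each gene's count as a share of its library's total, scaled by TMM, a method that evens out differences in composition between libraries. WT sham replicate 2, with a median correlation of 0.949 to the other libraries, and KO SNI replicate 1, with 0.973, stood apart from the remaining 14, which had 0.980 or more. Many, though not all, of the fold changes, genotype comparisons, spreads and correlations below are also given without this pair. As a check of the genotype labels, IDs were sought at 0 in every library of 1 genotype and 10 counts or more in every library of the other. Exactly 1 ID was at 0 throughout the 8 KO libraries while the 8 WT libraries had 65 to 113 counts, and 0 IDs showed the reverse. That ID could not be matched to the LPA4 gene, so the loss of the targeted gene itself was not shown.

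Each of the 3 C1q transcripts was detected in all 16 libraries. Expected counts per library were 905 to 5240 for C1qa, 502 to 2431 for C1qb and 382 to 2422 for C1qc, and all 48 values were whole numbers. Counting error alone was thus at most 3.32%, 4.46% and 5.12%. The 3 genes differ in length, so their CPM values are compared between libraries and not with each other.

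C1qa, which encodes the A chain, had 70.7, 71.1, 62.9 and 59.5 CPM in the WT sham libraries and 138, 186, 118 and 105 CPM in the WT SNI libraries (replicates 1 to 4). In the KO sham libraries it had 68.0, 53.1, 54.6 and 52.6 CPM, and in the KO SNI libraries 184, 164, 135 and 113 CPM. Every SNI library of either genotype lay above every sham library of both. Separation within each of the 2 genotypes was found for 0.630% of all genes tested, and the C1q genes were chosen for their rise. Sham libraries averaged 66.0 ± 5.79 CPM (WT) and 57.1 ± 7.34 CPM (KO), and SNI libraries 137 ± 35.5 and 149 ± 31.3 CPM (SD, n = 4 each). Fitted log2 fold changes of SNI over sham were 1.05 (SE 0.17) in WT and 1.38 (SE 0.17) in KO, or 2.07-fold and 2.61-fold.

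C1qb, the gene of the B chain, had 31.7, 40.4, 35.9 and 31.9 CPM in WT sham and 78.7, 92.2, 67.0 and 54.9 CPM in WT SNI. The KO sham libraries had 38.0, 29.4, 27.8 and 29.7 CPM and the KO SNI libraries 85.2, 91.0, 71.0 and 64.0 CPM. The lowest SNI value, in WT SNI replicate 4, was 54.9 CPM against 40.4 CPM in the highest sham library, WT sham replicate 2, so the operations did not overlap. Sham means were 34.9 ± 4.10 CPM (WT) and 31.2 ± 4.58 CPM (KO), SNI means 73.2 ± 15.9 and 77.8 ± 12.4 CPM (SD, n = 4 each). The fitted rise was 2.10-fold in WT (log2 fold change 1.07, SE 0.16) and 2.49-fold in KO (1.32, SE 0.16).

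C1qc, which encodes the C chain, had 24.7, 29.7, 25.4 and 25.3 CPM in WT sham and 58.5, 75.1, 53.1 and 41.7 CPM in WT SNI. It had 23.7, 22.4, 21.7 and 24.9 CPM in KO sham and 84.8, 76.7, 56.3 and 48.9 CPM in KO SNI. Again no SNI library fell within the sham range, and the sham libraries of both genotypes lay close together. For C1qc the means were 26.3 ± 2.30 CPM (WT) and 23.2 ± 1.42 CPM (KO) after sham, then 57.1 ± 13.9 and 66.7 ± 16.9 CPM after SNI (SD, n = 4 each). The fitted rise was 2.18-fold in WT (log2 fold change 1.12, SE 0.18) and 2.88-fold in KO (1.52, SE 0.18).

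**Figure D1:**
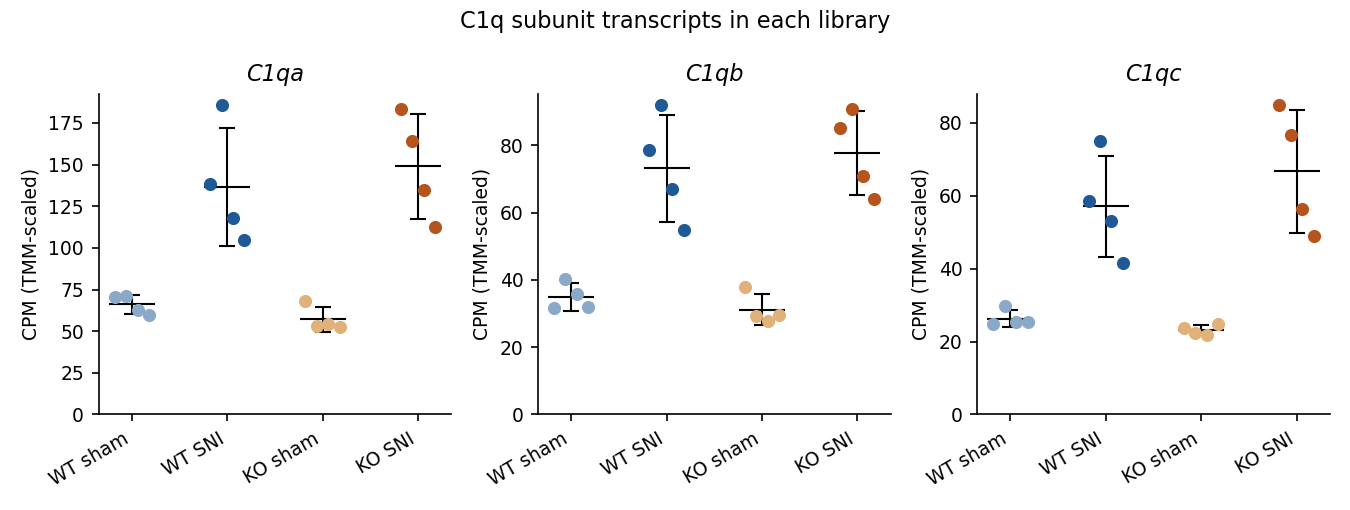
TMM-scaled CPM of C1qa, C1qb and C1qc (linear y axes from 0) in the 4 libraries of each group; points are libraries, horizontal bars with whiskers are means ± SD. For C1qa the sham points lie between 52.6 and 71.1 CPM and the SNI points between 105 and 186 CPM, and in each panel the SNI points are also the more widely spread.

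The summed CPM of the 3 genes was 127 ± 10.3 (WT) and 111 ± 12.2 (KO) after sham, and 267 ± 64.8 and 293 ± 59.7 after SNI (SD, n = 4 each). In these bulk samples, more cells of a type and more RNA per cell cannot be told apart. Markers of microglia, macrophages and other cell types could not be read from the unnamed IDs and were not analysed here.

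In the order of p over all genes tested, C1qb and C1qc stood 1st and 2nd for SNI against sham in WT and 2nd and 1st in KO. The set was defined to include the strongest rises, with no measure stated, so these places are no independent result. C1qa stood 6th in WT and 3rd in KO. Just outside the chosen pair, the ID in 3rd place in WT was no C1q gene and had a log2 fold change of 1.22 (SE 0.19). By size of the fold change the 3 genes stood lower, at places 66 to 79 in WT and 77 to 113 in KO. EdgeR's quasi-likelihood test called 13 of 15237 genes (0.0853%) for SNI against sham in WT, 16 (0.105%) in KO and 139 (0.912%) averaged over genotypes, all higher after SNI. With 1 library left out these counts ran from 0 to 20, from 3 to 34 and from 81 to 177. All 4 SNI libraries lay above all 4 sham libraries for 1.9% of genes in WT, 2.49% in KO and 0.630% in both, and the 3 C1q genes were among the last by choice. The share with all SNI above all sham libraries across genotypes was not computed.

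Without both libraries that stood apart, the log2 fold changes of SNI over sham were 1.09, 1.14 and 1.18 in WT and 1.27, 1.27 and 1.39 in KO for C1qa, C1qb and C1qc. The rise was thus as large or slightly larger in WT without WT sham replicate 2, and smaller in KO without KO SNI replicate 1. WT SNI replicate 2 was the library on which the WT values leaned most, and without it they were 0.87, 0.94 and 0.96.

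The genotype comparisons were not used to choose the genes and could be tested. After sham the mean of each C1q transcript was lower in KO than in WT, and after SNI it was higher, but none of these differences passed the test. The sham differences in mean CPM of C1qa and C1qc were larger than the SD of either group, while that of C1qb and the SNI differences were smaller. After sham the KO level was 0.865 times the WT level for C1qa (95% confidence interval 0.672 to 1.11), 0.895 times for C1qb (0.712 to 1.13) and 0.884 times for C1qc (0.682 to 1.15), each with an edgeR adjusted p of 0.882. The values overlapped: KO sham replicate 1 had 68.0 CPM of C1qa, inside the WT sham range, and the other KO sham libraries had less than any WT sham library. EdgeR called 2 of 15237 genes in this comparison (0.0131%), and 0 of the 3 C1q genes were among them. Without both libraries that stood apart the log2 differences after sham were -0.17, -0.0849 and -0.12 for C1qa, C1qb and C1qc (edgeR adjusted p = 0.9998 each), and without KO sham replicate 1 they were -0.31, -0.27 and -0.19.

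After SNI the KO level was 1.09 times the WT level for C1qa (95% confidence interval 0.849 to 1.395), 1.06 times for C1qb (0.850 to 1.33) and 1.17 times for C1qc (0.908 to 1.502), with an edgeR adjusted p of 0.9999 for each. The highest and lowest C1qa values of the SNI libraries were both in WT, at 186 and 105 CPM, so the KO C1qa values lay inside the WT range. The same held for C1qb, at 92.2 and 54.9 CPM. C1qc differed: KO SNI replicates 1 and 2, at 84.8 and 76.7 CPM, were above the highest WT SNI value of 75.1 CPM. The test called 0.0131% of all genes, and again 0 of the 3. Differences of up to 1.502-fold in C1qc and 1.395-fold in C1qa between injured KO and WT rats remain within these intervals. Without both libraries that stood apart the log2 differences after SNI were 0.0050, 0.0405 and 0.0857 for C1qa, C1qb and C1qc (edgeR adjusted p = 0.996, 0.961 and 0.910). Leaving out WT SNI replicate 2 instead moved them the other way, to 0.31, 0.22 and 0.39 (edgeR adjusted p = 0.9999 each), and leaving out WT SNI replicate 4 gave 0.0149, -0.0273 and 0.10.

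Averaged over operations, KO differed from WT by a log2 fold change of -0.0438 (SE 0.12) for C1qa, -0.0361 (SE 0.11) for C1qb and 0.0228 (SE 0.12) for C1qc, with an edgeR adjusted p of 0.9998 for each. The 95% confidence intervals in folds were 0.813 to 1.16, 0.831 to 1.14 and 0.848 to 1.22. This averaged comparison called 0.0131% of genes and 0 of the 3.

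Whether the response to injury depended on LPA4 is the question of the interaction, the SNI effect in KO minus that in WT. It was 0.33 on the log2 scale for C1qa (95% confidence interval -0.18 to 0.84), 0.25 for C1qb (-0.21 to 0.71) and 0.40 for C1qc (-0.12 to 0.92), with an edgeR adjusted p of 0.981 each, so the rise of C1q was not shown to differ between genotypes. All 3 estimates were positive, but they come from the same libraries and are not independent of each other. EdgeR called 0 of 15237 genes (0%) in the interaction, with 455 at an unadjusted p under 0.05, while DESeq2 called 1 and limma voom 0. Without both libraries that stood apart the estimates were 0.18, 0.13 and 0.20 (edgeR adjusted p = 0.859, 0.894 and 0.832). Without WT SNI replicate 2, the WT SNI library with the highest C1q, they were larger (edgeR adjusted p = 0.977 each). The estimates were then 0.52 (SE 0.21), 0.38 (SE 0.20) and 0.56 (SE 0.23), where the main fit had SEs of 0.24, 0.22 and 0.25. A replicate block gave 0.33 (SE 0.16), 0.25 (SE 0.16) and 0.39 (SE 0.20), with an edgeR adjusted p of 0.976 each. Leaving out libraries thus moved the estimates, while the block mainly lowered their SEs.

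**Figure D2:**
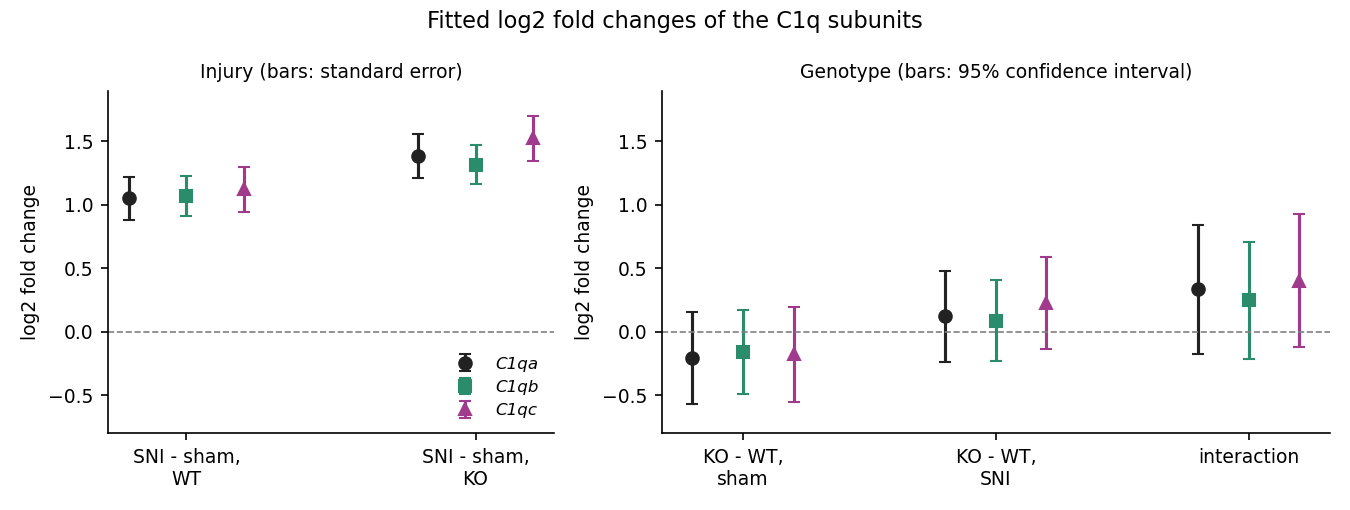
Fitted log2 fold changes (y axes) of C1qa (circles), C1qb (squares) and C1qc (triangles). The left panel shows SNI minus sham in WT and KO with standard errors, from 1.05 to 1.52, and the right panel shows KO minus WT after each operation and the interaction with 95% confidence intervals, all of which include 0.

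Within groups, libraries differed more in C1q after SNI than after sham, least so for C1qb in KO. Among WT SNI libraries the values of C1qa spanned 1.77-fold, of C1qb 1.68-fold and of C1qc 1.80-fold, against 1.20-fold, 1.27-fold and 1.20-fold among WT sham libraries. In KO the spans after SNI were 1.63-fold, 1.42-fold and 1.74-fold, against 1.29-fold, 1.37-fold and 1.15-fold after sham, so that C1qb in KO hardly differed in spread. Over both genotypes, the SD of log2 CPM around the group mean was 0.15 in sham and 0.33 in SNI for C1qa, 0.18 and 0.28 for C1qb, and 0.11 and 0.36 for C1qc. These SNI spreads were 2.18, 1.53 and 3.42 times the sham spreads. Genes of like level were those within 0.5 of each in mean log2 CPM over all 16 libraries (1716, 2441 and 2583 genes). Among them the median ratio of SNI to sham spread was 0.875, 0.862 and 0.868.

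Ranked among those genes, the sham spread of C1qa exceeded that of 59.6%, that of C1qb 69.0% and that of C1qc 29.97%. The SNI spread exceeded that of 98.2%, 96.2% and 98.3%. Against these genes the sham spreads ranked nearer the middle, and all 3 SNI spreads were among the largest. The match was by mean level over all 16 libraries. C1q lay below its own mean in sham and above it after SNI. No match by sham level or by SNI level was made. With both libraries that stood apart left out, the SNI spreads were 2.06, 1.78 and 4.96 times the sham spreads, against medians of 0.951, 0.945 and 0.953. This is a description over 4 libraries a group, with no test.

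The subunits varied together. In WT SNI the 4 libraries fell in the same order for all 3 genes, with replicate 2 highest, then 1, 3 and 4. In KO SNI replicates 3 and 4 were the lowest for all 3 genes, and replicate 1 was the highest for C1qa and C1qc, replicate 2 for C1qb. Replicates 1 and 2 thus stood above 3 and 4 after SNI in both genotypes. Whether the replicate number marks a batch or a pairing shared by the groups was not tested. In sham the order differed between genes: WT sham replicate 1 was above its group mean in C1qa (0.10 on the log2 scale) and below it in C1qb and C1qc (-0.13 and -0.0839).

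Over 16 libraries, Pearson's r of log2 CPM was 0.986 between C1qb and C1qa, 0.986 between C1qc and C1qa and 0.984 between C1qc and C1qb (Spearman's rho 0.968, 0.924 and 0.956). Much of this is the injury difference itself. With the group means subtracted, r was 0.887, 0.889 and 0.867 (rho 0.806, 0.791 and 0.912). Without both libraries that stood apart these r were 0.909, 0.862 and 0.888, and those over all libraries with group means kept were 0.988, 0.983 and 0.988. These deviations correlated more closely among the 8 SNI libraries (0.946, 0.978 and 0.954) than among the 8 sham libraries (0.736, 0.304 and 0.661), where the spread was smaller. The points share library, depth and scaling, and the values are given as descriptions.

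**Figure D3:**
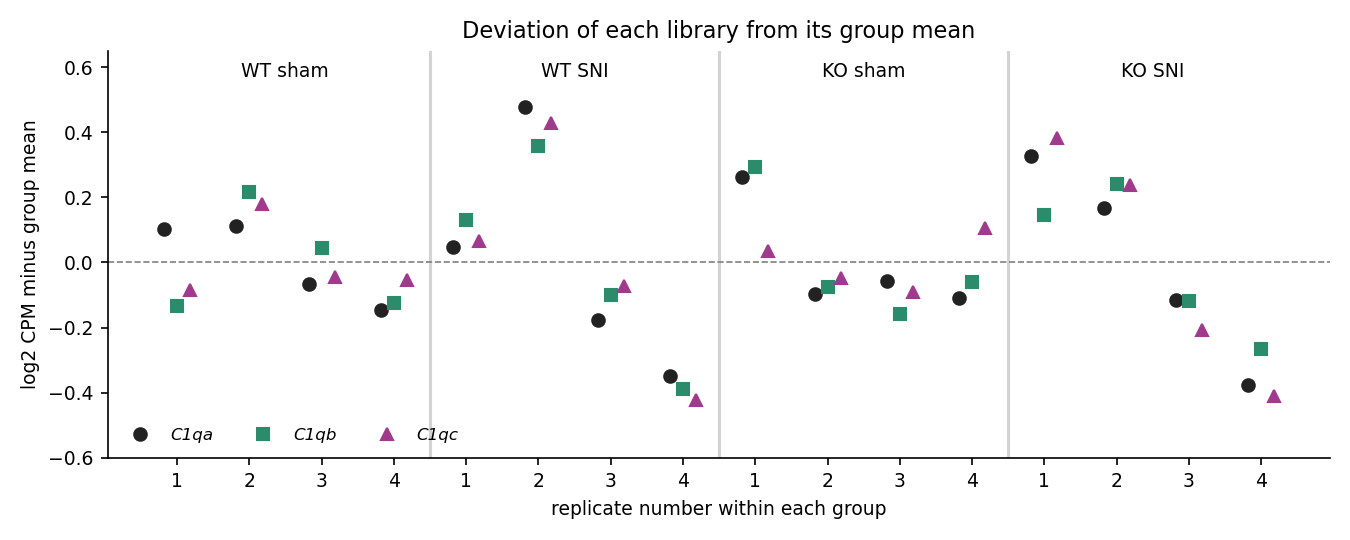
Deviation of log2 CPM from the group mean (y axis) for C1qa, C1qb and C1qc in each library, by group and replicate number. In WT SNI the 3 symbols of each library lie close together, with C1qc at 0.43 in replicate 2 and -0.42 in replicate 4, while in the sham groups most deviations are smaller and they are less alike.

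Ranked against 13942 other genes with a mean of at least 1 CPM, each C1q gene stood among the 4 that correlated best with each of the others in the deviations from group means. C1qa was 2nd for both C1qb and C1qc, C1qb was 4th for both C1qa and C1qc, and C1qc was 3rd for C1qa and 4th for C1qb. Over all 16 libraries with the group means kept, these places were 1st or 2nd.

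A C1q score, the mean of the 3 centred log2 CPM values, was then compared with 13940 other genes. Over 16 libraries 55 genes had r above 0.9 with the score. The 2 most alike were ENSRNOG00000017874 (r = 0.971) and ENSRNOG00000014294 (r = 0.965), which the files do not pair with names. ENSRNOG00000017874 averaged 12.6 ± 0.988 CPM (WT) and 11.99 ± 0.599 CPM (KO) after sham, and 19.05 ± 3.22 and 19.05 ± 2.43 CPM after SNI (SD, n = 4 each). For ENSRNOG00000014294 the sham levels were 8.75 ± 0.793 and 8.50 ± 1.07 CPM and the SNI levels 14.1 ± 1.76 and 14.3 ± 2.38 CPM. Both rose after SNI averaged over genotypes, by 0.63 and 0.72 on the log2 scale (edgeR adjusted p = 0.00133 and 0.00107). The score itself carries the injury difference, so these p-values are no independent support. The 10 genes most alike had r of 0.954 or more. All 10 were called higher after SNI averaged over genotypes, where 0.912% of all genes were called. They were picked by a score that carries this difference, so the count is no independent support.

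Likeness in the deviations alone leaves out the differences between group means. The SNI libraries weigh most in it, as the SD of C1q deviations was 0.28 to 0.36 in SNI and 0.11 to 0.18 in sham. No gene reached r above 0.9 in the deviations. The 10 most alike had r of 0.8289 to 0.891, and 3 of them were also among the 10 most alike over all libraries. Of these 10 genes 7 were called higher after SNI averaged over genotypes, where 0.912% of all genes were called. They were picked from deviations that lie largely among SNI libraries, so this count is no independent support either. Each C1q gene's own r with the mean of the other 2 was 0.919 for C1qa, 0.903 for C1qb and 0.904 for C1qc. Each was above the r of every outside gene with the full score, which is an unlike measure. In single pairs, the gene that correlated best with each member was outside the set. Without both libraries that stood apart, 7 of the 10 genes most alike over all libraries and 4 of the 10 in the deviations were again among the first 10.

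**Figure D4:**
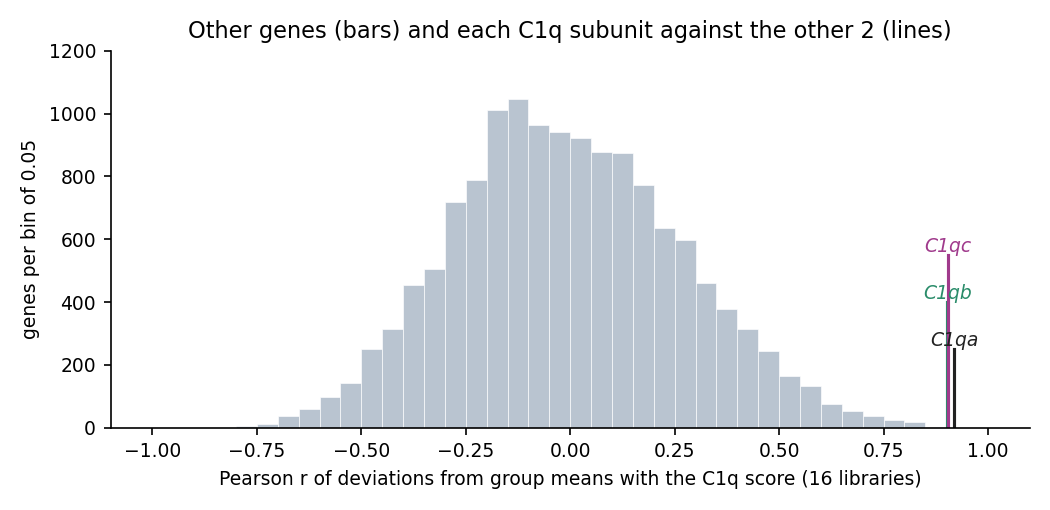
Number of genes (y axis, bars, bins of 0.05) by Pearson's r of their deviations from group means with the C1q score over 16 libraries (x axis), for 13940 genes outside the set. Lines mark each C1q gene against the mean of the other 2, at 0.903 to 0.919. The highest other gene against the full score, an unlike measure, is at 0.891.

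At the other end, the genes least like the C1q score over 16 libraries were ENSRNOG00000022922 and ENSRNOG00000007139, both with r = -0.733. ENSRNOG00000007139 had 7.31 ± 1.32 CPM after sham against 5.53 ± 0.794 CPM after SNI in WT, and 7.72 ± 0.650 against 5.81 ± 0.699 CPM in KO (SD, n = 4 each). Neither passed the test for SNI averaged over genotypes (edgeR adjusted p = 0.0964 for ENSRNOG00000007139 and 0.275 for ENSRNOG00000022922). Both were picked by a score that carries the injury difference, so these p-values are no independent result.

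The balance of the 3 transcripts within a library changed little beside their levels. While C1qa levels spanned 3.53-fold over the 16 libraries, C1qb 3.32-fold and C1qc 3.91-fold, the C1qb/C1qa ratio of CPM spanned 1.27-fold, from 0.448 in WT sham replicate 1 to 0.570 in WT sham replicate 3. The C1qc/C1qa ratio spanned 1.36-fold, from 0.349 in KO sham replicate 1 to 0.473 in KO sham replicate 4. The C1qc/C1qb ratio spanned 1.59-fold, from 0.625 in KO sham replicate 1 to 0.996 in KO SNI replicate 1, the library that stood apart. The next highest C1qc/C1qb ratio in KO SNI was 0.843. These ratios depend on gene length and are read only as differences between libraries.

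By group, the C1qb/C1qa ratio was 0.530 ± 0.0573 (WT) and 0.547 ± 0.0256 (KO) after sham, and 0.539 ± 0.0358 and 0.528 ± 0.0463 after SNI (SD, n = 4 each). The C1qc/C1qa ratio was 0.399 ± 0.0341, 0.411 ± 0.0517, 0.418 ± 0.0234 and 0.445 ± 0.0236 in the same order. For C1qc/C1qb it was 0.755 ± 0.0390, 0.752 ± 0.0903, 0.777 ± 0.0325 and 0.849 ± 0.104. Sham and SNI values overlapped for all 3 ratios in both genotypes.

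Between genotypes, 6 comparisons of log2 ratios were made, 3 ratios after each operation. The C1qc/C1qb ratio after SNI differed most, by 0.12 (KO minus WT, log2), which an exact two-sided permutation test over 4 against 4 libraries put at p = 0.200 (adjusted over the 6, 0.600; the smallest p possible is 0.0286). The other differences were 0.0892 for C1qc/C1qa after SNI (exact permutation p = 0.171, adjusted 0.600) and between -0.0321 and 0.0494 for the remaining 4 (exact permutation p of 0.714 or more, adjusted 0.943). With 1 library left out the C1qc/C1qb difference after SNI ran from 0.0417 without KO SNI replicate 1 to 0.17 without KO SNI replicate 4 (exact permutation p = 0.457 and 0.0571, unadjusted). The C1qc/C1qa difference after SNI ran from 0.0645 to 0.12.

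**Figure D5:**
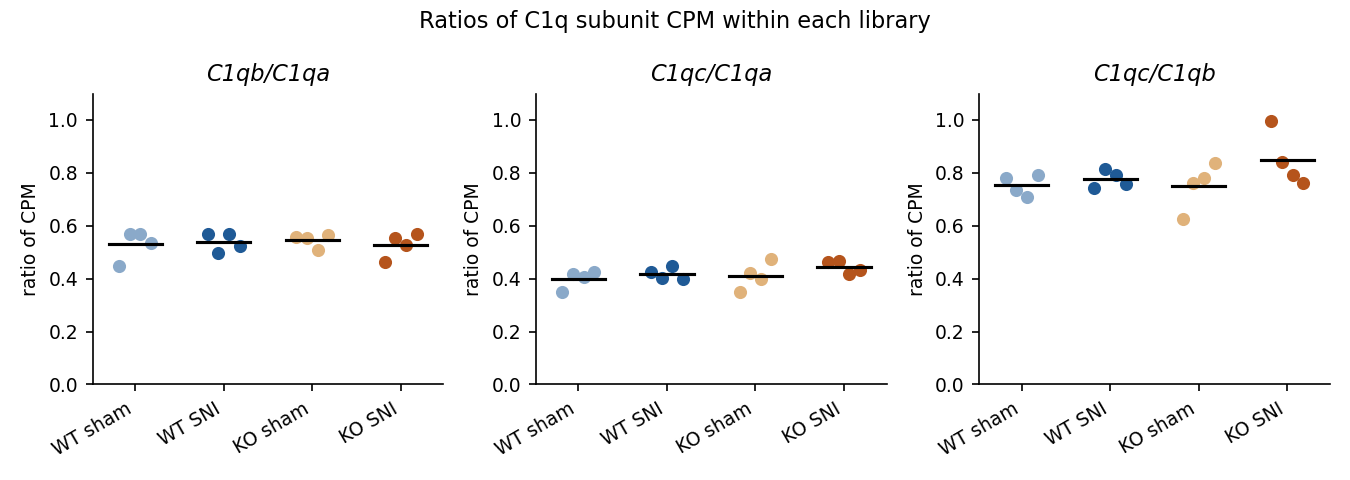
Ratios of CPM between C1q subunits within each library (y axes, linear from 0), by group; points are libraries and bars are group means. The points of all 4 groups overlap in each panel, and 1 KO SNI library, at 0.996 for C1qc/C1qb, lies apart from the others of its group.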

How the data were processed

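The authors deposited 1 table of expected counts (a model's estimate of reads per gene, which can be fractional), with 30560 rat Ensembl IDs and 16 libraries. Of its values 96.4% were whole within 1e-09, and column totals differed. Tools listed in the submitters' processing notes are RSEM 1.3.1, STAR 2.7.9a and fastp 0.22.0, with the build mRatBN7.2. Their roles, the annotation release and the strand setting were not given in the sources used here. Protocols in the labels name a Monarch kit for RNA and a strand-keeping TruSeq mRNA kit for sequencing. Reads that fit several genes are divided in an expected count, which makes genes with close copies less certain.

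Counts were rounded, genes kept by filterByExpr (minimum count 10, 15237 genes with 99.97% of counts), libraries scaled by TMM, and 1 edgeR 4.0.16 quasi-likelihood model (robust, a mean per group, all 16 libraries) fitted (R 4.3.3). Benjamini-Hochberg adjustment covered every gene tested, and an adjusted p under 0.05 was a call. Log2 CPM used a prior count of 2. The model was also run on simulated data. How many changed genes it recovered is not reported here, so nothing is claimed about its power. DESeq2 1.42.0, limma 3.58.1 voom, other scalings, no filter, a replicate block and fits without single libraries were alternatives. Among the 120 pairs of libraries the smallest chi-square per degree of freedom was 7.85, and all 16 libraries were kept as separate.

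The members, lists and tests were chosen with earlier results of these data known. The rule for named genes was the 3 members and the genes most and least like them. The gene table of GRCr8 gives an Ensembl ID for 0 of its 47357 genes, so 0 symbols could be matched to IDs, and the 18 gene lists prepared (complement pathway, C1q domain proteins, cell type markers), the tissue's markers and the targeted gene were not analysed here. Only 2 IDs alike and 2 unlike in pattern are printed. A further promoter motif that was searched is not reported here.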

Additional observations from a re-analysis of the deposited data

Results flagged for a closer look

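Levels and ratios of the 3 genes made 24 sets of 4 libraries, each examined for a value far from its neighbours, which chance alone gives in about 1 in 20 sets. There were 2 such values. For C1qa, KO sham replicate 1 stood at 68.0 CPM while the remaining 3 libraries of its group spanned 52.6 to 54.6. For C1qc, WT sham replicate 2, which had the lowest total of all 16 libraries, stood at 29.7 CPM while its group otherwise spanned 24.7 to 25.4.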

How the results depend on the processing

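The rise of each C1q gene after SNI kept its direction under all alternatives run, with log2 fold changes of 0.87 to 1.24 in WT and 1.23 to 1.65 in KO. No genotype comparison or interaction of a C1q gene passed the threshold under any of them (smallest edgeR adjusted p 0.636 after sham). The direction after sham was kept throughout and so was that of the interaction, but small genotype differences changed sign. After SNI C1qb ran from -0.0273 to 0.22 over fits without 1 library, C1qa from 0.0051 to 0.31 and C1qc from 0.0862 to 0.39, the latter pair without a change of sign. Averaged over operations C1qa ran from -0.10 to 0.0483, C1qb from -0.0936 to 0.0291 and C1qc from -0.0462 to 0.10, and C1qc was -0.0155 without both libraries that stood apart. Over ratios without 1 library, KO minus WT after sham ran from -0.0298 to 0.0867 for C1qb/C1qa, -0.0350 to 0.11 for C1qc/C1qa and -0.0683 to 0.0726 for C1qc/C1qb, and after SNI from -0.0715 to 0.0288 for C1qb/C1qa, which was 0.0288 without both libraries that stood apart. The cause was not tested.

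Counts of genes called moved more. For KO against WT after sham edgeR called 1 gene with the replicate block, over the groups compared alone and without both libraries that stood apart, and 1 to 2 without 1 library, while DESeq2 called 4. DESeq2 called 1 gene in the interaction. For SNI in WT the counts were 65 with DESeq2, 0 with limma voom, 45 with the replicate block, 0 over the WT libraries alone, 33 without both libraries that stood apart, 22 with library totals unscaled (added after the data were seen) and 0 to 20 without 1 library, more than 1.5 times from 13 for 12 of the 16 libraries. For SNI in KO they were 98, 7, 70, 4 and 10 in the order of the first 5, and 3 to 34 without 1 library, again moved that far by 12 of 16. The averaged SNI effect called 223 with DESeq2 and 81 to 177 without 1 library, at 81 without WT SNI replicate 2, 84 without WT sham replicate 3 and 88 without KO sham replicate 3. Over 24 pairs of same-numbered libraries of 2 groups, r of the deviations ran from -0.357 to 0.226. It was over 0.1 in 6 pairs, and negative values were as marked. Libraries of different number were not compared, so this count cannot decide whether the numbers pair libraries. The main model does not pair them. In SNI of both genotypes, replicates 1 and 2 were above and 3 and 4 below the group mean for all 3 C1q genes. For C1qa in KO against WT after SNI, the SE was 0.17 in the main fit and 0.11 with the replicate block. The replicate block changed no call of a C1q gene between genotypes.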
